A study of Arabidopsis thaliana with 8 samples.

Results

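Rosette RNA of an eds1 pbl19 mutant of Arabidopsis thaliana that carries pPBL19:PBL19C3A-GFP-HA (the eds1 line) was compared with that of wild type (WT). The comparison takes 4 of the 8 libraries of the study, 2 for each genotype. It was set by genotype labels, with earlier results of these data known. All plants were of the Col-0 ecotype, untreated and 28 days old, and the labels give the eds1 line the same visible phenotype as Col-0. The other libraries come from the pbl19 mutant with the same construct (the PBL19C3A line) and from a sid2 pbl19 mutant with it (the sid2 line), both labelled as having constitutive immunity. The labels do not give the eds1 allele, how the lines were made, or whether 1 insertion of the construct is shared between them. Since the design text speaks of 1 biological replicate, p-values here measure only the spread between libraries, which may be technical.

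EDS1 is a lipase-like protein that forms complexes with its relatives PAD4 or SAG101. These complexes pass on signals from intracellular receptors of the TIR type and, with salicylic acid made through ICS1 (SID2), raise the RNA of defence genes such as PR1. PBL19 belongs to subfamily VII-4 of the receptor-like cytoplasmic kinases, which act below pattern receptors at the plasma membrane. In PBL19C3A the palmitoylation site near the amino terminus is mutated. EDS1 lies on chromosome 3 and PBL19 on chromosome 5, so genes on chromosome 3 are described apart from the others.

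The WT libraries held 46433816 and 46560720 counted reads, and those of the eds1 line 48470650 and 46840480. The table of these 4 libraries listed 17534 genes, each at 1 CPM (counts scaled to the library total) or more in at least 2 of them. The median absolute log2 ratio between libraries over 16746 genes was 0.180 between the WT libraries, 0.178 between those of the eds1 line, and from 0.122 to 0.188 between genotypes. The lowest of these values, 0.122, was between the second library of WT and the second of the eds1 line. Photosynthesis genes, the mark of green leaf tissue, were all 23 present, at a summed level of 91077.9 to 98960.8 FPKM in WT and 82801.8 to 92628 FPKM in the eds1 line. Of the markers of other organs, 2 of 6 root genes and 1 of 6 flowering genes were listed. The summed level of the root genes, 113.6 and 136.5 FPKM in WT against 144.5 and 166.1 in the eds1 line, rests mainly on PYK10, and the part of such cells in any result was not tested.

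The eds1 line differed from WT in few genes. With edgeR's quasi-likelihood test and a Benjamini-Hochberg adjusted p under 0.05, 37 of 17534 genes were called (0.211%), 15 higher (0.0855%) and 22 lower (0.125%) in the eds1 line. At an unadjusted p under 0.05 there were 607 genes (3.46%), and DESeq2 called 90 (0.513%). Chromosome 3 held 24 of edgeR's 37, which is 0.692% of its 3470 tested genes. Chromosomes 1, 2, 4 and 5 together held 5, or 0.0362% of 13810 genes. The remaining 8 were loci that the files name newGene and place on no chromosome, 4.23% of 189 such loci. Taken with the organelle genes, of which edgeR and DESeq2 called 0 of 65 and 5 had an unadjusted p under 0.05, everything without a chromosome 3 identifier gave 13 calls in 14064 genes (0.0924%). Over all genes the median log2 difference was 0.01, and 253 genes (1.44%) differed at least 2-fold.

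The genes named by the genotype came out as follows. EDS1 stood at 836 and 1373 counts in WT and at 539 and 331 in the eds1 line (8.03 and 13.4 against 4.99 and 3.21 FPKM). Its RNA was thus present in both libraries of the mutant, below both WT values, as in 15.1% of all genes. The log2 difference of -1.42 ± 0.29 (SE) had an adjusted p of 0.387, and 0.00044 in DESeq2. As the allele is not given, counts over the whole gene cannot check the mutation. EDS1B, the neighbouring copy of EDS1, was not listed for the eds1 line. In WT it stood at 0.236 and 0.759 FPKM, and reads of such near-identical copies may have been assigned to either.

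PBL19 counted 632 and 880 reads in WT and 5767 and 3207 in the eds1 line (7.4 and 10.4 against 65.1 and 37.9 FPKM). Both eds1 libraries lay above both WT libraries, but they also differed from each other by more than the WT pair. PBL19 rose by 2.49 ± 0.33 on the log2 scale (adjusted p = 0.0499). That call sits at the threshold, and over 11 other settings its adjusted p ran from 4.8e-13 to 0.491, with 3 of them keeping it. The size held better, from 2.08 without the first eds1 library to 2.81 without the second. Without the first WT library it was 2.26 and without the second 2.76. In the PBL19C3A line PBL19 stood at 2197 and 1637 FPKM and in the sid2 line at 626 and 956, so that each of these 4 libraries was above both eds1 libraries. Reads of the mutated gene and of the construct cannot be told apart in these counts. Of the 10 tested genes on each side of PBL19, 0 were called by edgeR, 1 had an unadjusted p under 0.05, and their log2 differences lay between -0.45 and 0.37. Among the other RLCK VII-4 kinases 3 were tested, with log2 differences of 0.07 to 0.23.

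**Figure D1:**
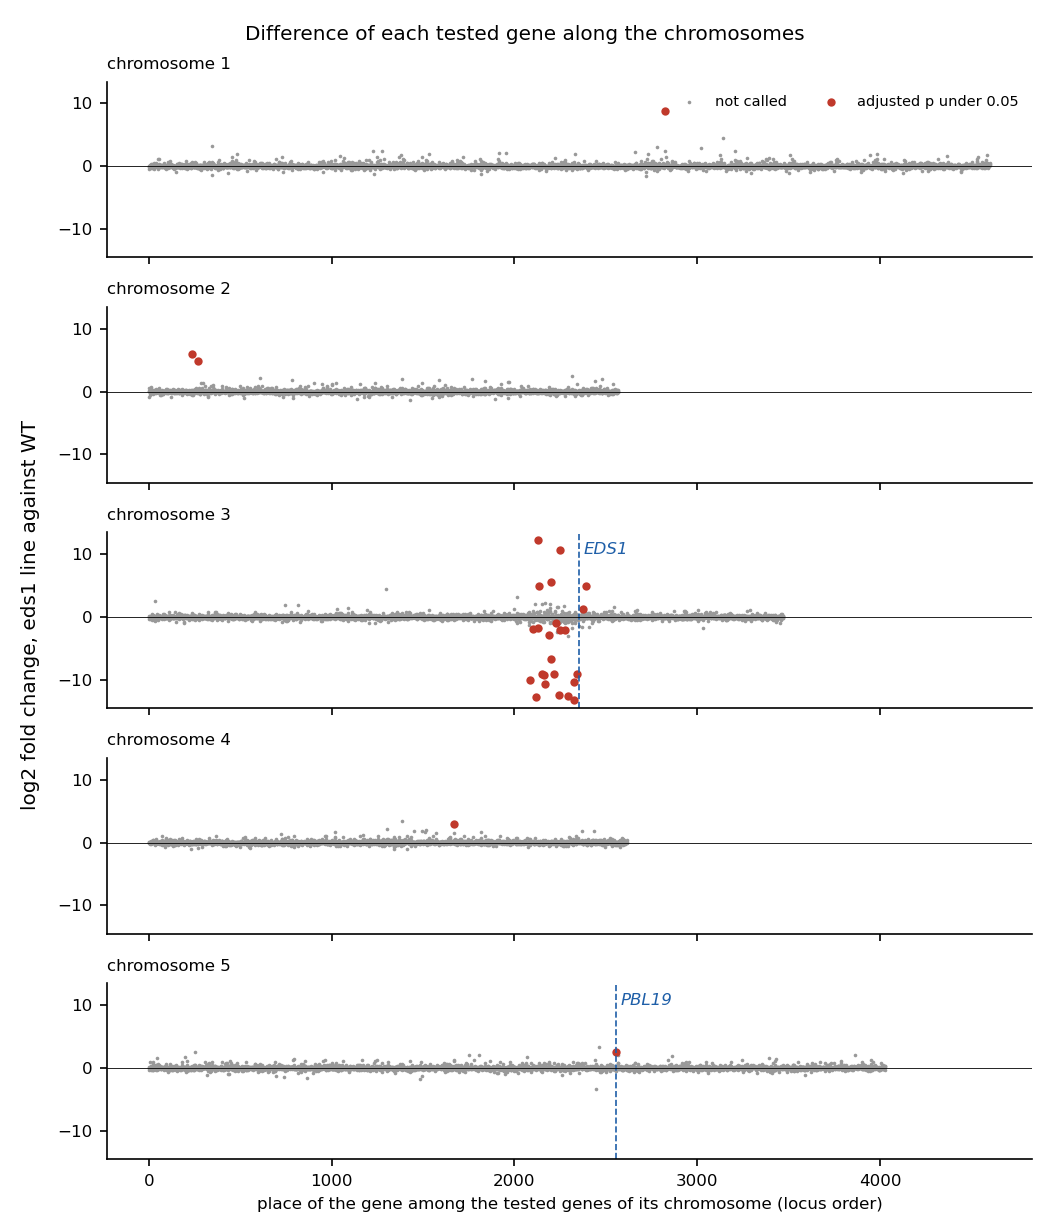
Log2 fold change (eds1 line against WT, vertical axis) of each tested gene, drawn by its place among the tested genes of its chromosome (horizontal axis). Red points passed the adjusted p threshold, and dashed lines mark EDS1 and PBL19. The 24 called genes of chromosome 3 lie in 1 stretch, mostly before EDS1, and the other chromosomes hold 5 called genes in all.

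On chromosome 3 the called genes lay together. When the chromosome was cut into 70 windows of 50 tested genes (20 in the last), all 24 fell into 7 windows in a row, from AT3G29090 to AT3G48740. These windows were picked out by the calls, so the following values describe them and are no test. Of their 350 genes 6.86% were called, 12.6% differed at least 2-fold, and the median absolute log2 difference was 0.230. In the other 3120 genes of the chromosome 0 were called by edgeR and 84 had an unadjusted p under 0.05 (2.69%). There 0.641% differed at least 2-fold, and the median absolute difference of 0.122 was near the 0.118 of chromosomes 1, 2, 4 and 5. These other genes include the window right after the stretch, AT3G48750 to AT3G49490. Its median of 0.182 was above the lowest of the stretch windows, 0.167, and 7 of its 50 genes had an unadjusted p under 0.05. The calls therefore do not fix where the stretch ends. Within the stretch a further 70 genes had an unadjusted p under 0.05 without being called.

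EDS1 sat towards one end of this stretch. Before it in locus order came 22 called genes, the farthest being QQS, 268 tested genes away, and TES, 248 away. After it came CEP3 and AT3G48640, the latter 41 tested genes away. Right beside EDS1 the differences were small, since 19 of its 20 nearest tested genes were within 0.5 of 0 on the log2 scale. The exception was AT3G47965.

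Most of the called genes on chromosome 3 were lower in the eds1 line, 18 of 24, and 11 of these had lost nearly all reads. That pattern, at least 1 CPM in both WT libraries and at most 3 reads over both eds1 libraries, was chosen after the values were seen. Besides these 11 it was met by 0 genes of chromosomes 1, 2, 4 and 5 and by 3 of the unplaced loci. All 11 had reads in each library of the PBL19C3A and sid2 lines, between 38 for AT3G44713 and 17696 for CRK4. A count of 0 allows up to 3 reads over both eds1 libraries, and the folds given here are lower bounds from that floor. All 11 were under 1 CPM in both eds1 libraries, so they were listed through the WT libraries and had to differ. This limits what their calls add, and the same holds for MLO3 and AT3G45430.

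Several of these genes encode receptors or relatives of receptors. CRK4, a cysteine-rich receptor-like kinase of the plasma membrane, counted 537 and 694 reads in WT and 0 and 2 in the eds1 line. In the PBL19C3A line it counted 17696 and 14921, and in the sid2 line 1652 and 2123. The eds1 libraries thus stood apart from all 6 others, and CRK4 fell by a ratio of 645 (95% counting interval 178 to 5335, adjusted p = 0.00017). AT3G46370, a leucine-rich repeat kinase, had 798 and 530 reads in WT and 0 in both eds1 libraries, at least 464-fold lower (adjusted p = 0.003). AT3G43740, a leucine-rich repeat protein without a kinase in its annotation, had 827 and 785 reads against 0 and 0, at least 563-fold lower (adjusted p = 2.2e-05). For both, the libraries of the other lines lay near those of WT, between 359 and 1248 reads.

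The other genes without reads differ in what they encode. AT3G47680, annotated as a DNA-binding protein, had the highest WT counts of them, 1120 and 1261, and was at least 832-fold lower (adjusted p = 2e-05). Its neighbour AT3G47675 had 164 and 167 reads in WT and 0 in both eds1 libraries, at least 116-fold lower (adjusted p = 0.00069, and 0.0618 with the 4 compared libraries alone). HSD2, a hydroxysteroid dehydrogenase, went from 889 and 702 reads to 0 and 0, at least 556-fold lower (adjusted p = 5.2e-05). AT3G44740, annotated with the class II aminoacyl-tRNA synthetases, went from 199 and 210 to 0 and 0, at least 143-fold lower (adjusted p = 0.00077). In each of these 4 genes the PBL19C3A and sid2 libraries kept reads, from 87 in AT3G44740 to 1285 in AT3G47680.

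QQS, an Arabidopsis gene known for its effect on leaf starch, had 161 and 103 reads in WT and 0 in both eds1 libraries. It was at least 92.3-fold lower (adjusted p = 0.0109), and the call was lost without the first WT library (0.0521) or the first eds1 library (0.0691). Its level also ranged among the other genotypes, from 2.15 and 3.87 FPKM in the PBL19C3A line to 19.4 and 24 FPKM in the sid2 line. Of the uncharacterized genes, AT3G44430 had 590 and 621 reads in WT against 0 and 2, a ratio of 635 (95% counting interval 175 to 5249, adjusted p = 9e-05). AT3G44713 and AT3G47965 were low in WT, at 60 to 80 reads, and had 0 reads in the eds1 libraries. Their adjusted p was 0.0155 and 0.00706. Each lost its call without at least 1 library, at 0.0672 to 0.102 for AT3G44713 without any of the 4 and at 0.0503 to 0.0552 for AT3G47965 without the first library of either genotype.

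The other 7 genes that fell kept some RNA, with a partial exception in AT3G45430. RPP13, an intracellular NB-LRR receptor for downy mildew effectors, had 2970 and 4030 reads in WT and 890 and 809 in the eds1 line (20.5 and 28.1 against 5.93 and 5.64 FPKM). It fell by 2.11 ± 0.16 on the log2 scale (adjusted p = 0.00179), while the PBL19C3A and sid2 libraries stood at 30.4 to 33.7 FPKM. Under limma on FPKM the call was lost (adjusted p = 0.0776). MLO3, of the seven-transmembrane MLO family whose member MLO2 is needed for powdery mildew entry, had 157 and 193 reads against 22 and 26. It fell by 2.92 ± 0.27 (adjusted p = 0.0069), and the call was lost without either eds1 library, at -2.75 (adjusted p = 0.112) and -3.11 (0.0556). The other lines had more MLO3 RNA than WT, 9.26 and 12.1 FPKM in the PBL19C3A line against 2.03 and 2.52 in WT.

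PHT4;3, a phosphate transporter, had 1487 and 1423 reads in WT and 420 and 321 in the eds1 line. It fell by 2.05 ± 0.13 on the log2 scale (adjusted p = 0.00063) and stayed called under all 11 other settings. TES, a kinesin needed to divide the cytoplasm after male meiosis, fell by 1.89 ± 0.18 (adjusted p = 0.00706), from 486 and 431 reads to 128 and 130. AT3G44010, a ribosomal protein of the S14/S29 family, fell by 1.71 ± 0.18 (adjusted p = 0.0115), from 1683 and 1313 reads to 529 and 432. In all 3 genes the libraries of the 2 genotypes did not overlap. TES kept a difference of -1.96 to -1.81 and AT3G44010 one of -1.80 to -1.53 in the fits without 1 library that lost their calls (adjusted p = 0.0556 to 0.111).

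ADF2, an actin-depolymerizing factor, showed the smallest of these differences, 2611 and 2398 reads against 1541 and 1252. It fell by 0.91 ± 0.11 on the log2 scale (adjusted p = 0.0205), and the call was lost without any 1 library (-1.0 to -0.82, adjusted p = 0.0868 to 0.171). AT3G45430, a lectin receptor kinase, had 206 and 227 reads in WT and 0 and 4 in the eds1 line and fell by 6.73 ± 0.79 (adjusted p = 0.0228). The call was lost without either WT library or without the first eds1 library (-6.80 to -5.72, adjusted p = 0.116 to 0.118). The next gene in locus order, the lectin receptor kinase AT3G45440, went the other way, from 4 and 19 reads to 650 and 502, and rose by 5.56 ± 0.66 (adjusted p = 0.00029). Summed, the 2 genes held 210 and 246 reads in WT and 650 and 506 in the eds1 line. The sources used here do not say how the counting treated reads of related neighbours, so the split between these 2 genes is uncertain.

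The 6 genes of chromosome 3 that were higher include 4 that only the table of the eds1 line lists. These entered the table through the eds1 libraries and so had to differ, which limits what their calls add. AT3G44070, a glycosyl hydrolase of family 35, had 0 reads in both WT libraries and 624 and 590 in the eds1 line, at least 386-fold higher (adjusted p = 1.3e-05). AT3G46500, an oxygenase of the 2-oxoglutarate type, had 0 and 0 against 242 and 163, at least 129-fold higher (adjusted p = 2e-05). Its call was lost with the 4 compared libraries alone (0.0694) and under limma (0.0658). AT3G44120, an F-box protein, rose from 24 and 13 reads to 879 and 410, by 5.03 ± 0.61 on the log2 scale (adjusted p = 0.00036). Without the first eds1 library the calls of AT3G44070 (adjusted p = 0.78), AT3G44120 (1, difference 4.46) and AT3G45440 (1, difference 5.42) were lost, and without the second those of AT3G44120 (0.558, difference 5.44) and AT3G45440 (0.0672, difference 5.68).

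The 2 remaining genes were measured in all 8 libraries. CEP3, a papain-type cysteine protease, had 336 and 360 reads in WT and 907 and 862 in the eds1 line (5.25 and 5.68 against 13.7 and 13.6 FPKM), and rose by 1.28 ± 0.14 on the log2 scale (adjusted p = 0.0158). The PBL19C3A and sid2 libraries lay below WT, at 2.19 to 3.70 FPKM, so the eds1 line was the highest of the 4 genotypes. The uncharacterized gene AT3G48640 stood at 0.0631 and 0.593 FPKM in WT and at 9.70 and 12.4 in the eds1 line, and rose by 4.92 ± 0.53 (adjusted p = 0.0137). Unlike CEP3 it was also high in the other lines, at 22.4 and 27.0 FPKM in the PBL19C3A line and 12.5 and 13.6 in the sid2 line. With both WT libraries under 1 CPM, AT3G48640 too entered the table through the eds1 libraries and had to differ, which limits what its call adds. The call of CEP3 was lost without any 1 library (1.23 to 1.34, adjusted p = 0.123 to 0.201) and that of AT3G48640 without either eds1 library (5.11 and 4.71, adjusted p = 0.0503 and 0.0556).

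**Figure D2:**
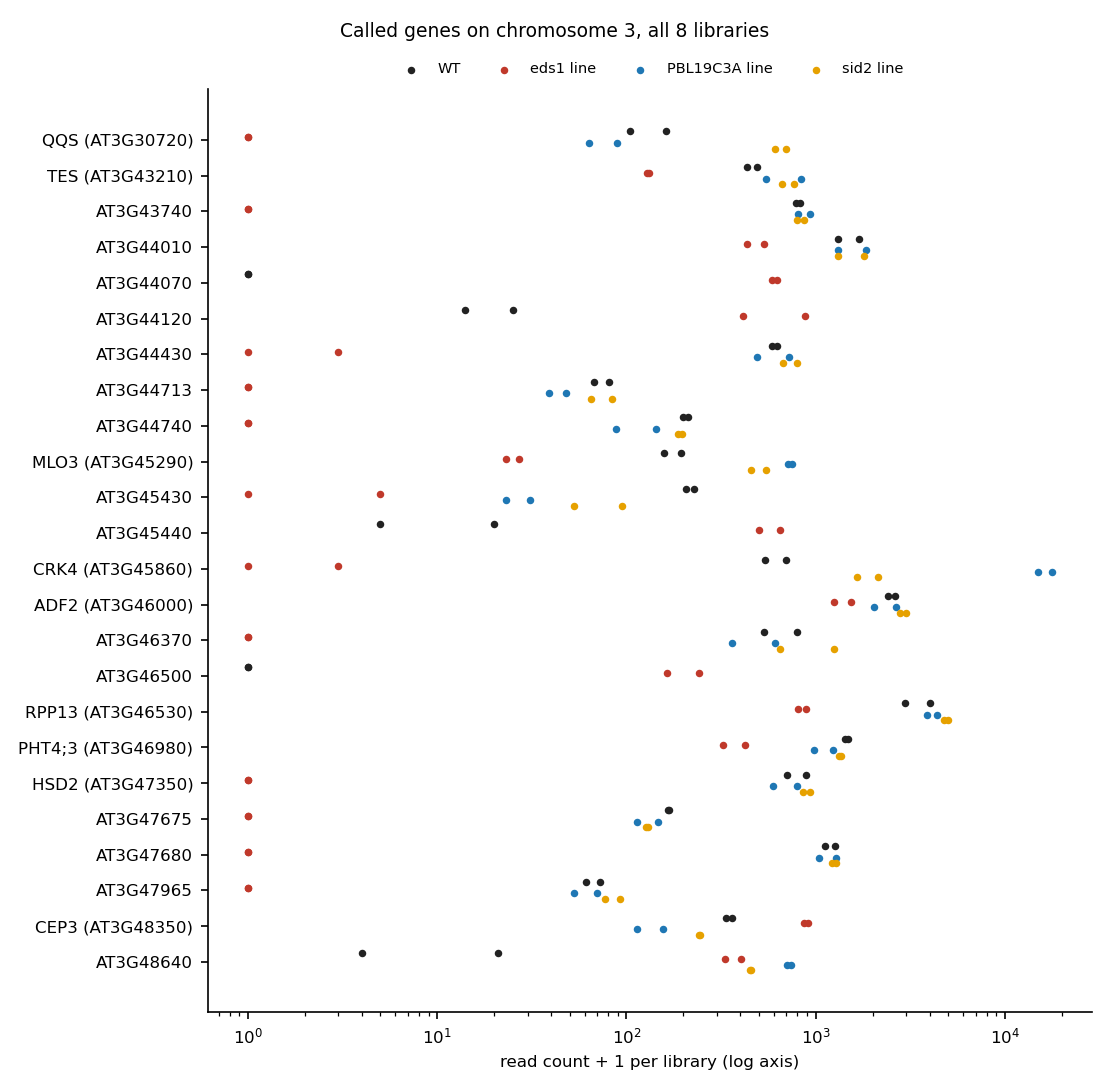
Read counts plus 1 (log axis) of the 24 called genes of chromosome 3 in each library of WT, the eds1 line, the PBL19C3A line and the sid2 line, in locus order. The eds1 libraries stand at or near 0 reads in 11 genes where the other 6 libraries have 38 reads or more, and genes without blue and yellow points are listed for the eds1 line alone.

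Off chromosome 3, 5 genes with a known chromosome were called, all of them higher in the eds1 line. MRD1 on chromosome 1 was first listed as a gene with lower RNA in a methionine-overaccumulating mutant. It had 1 and 2 reads in WT and 708 and 844 in the eds1 line, a ratio of 493 (95% counting interval 169 to 2395, adjusted p = 3.5e-07). The PBL19C3A libraries had 65 and 38 reads, between these, and the gene is not listed for the sid2 line. The next gene, HEI10, a RING protein of meiotic crossover, was named here after its values were seen. HEI10 had 41 and 28 reads against 195 and 204, without overlap on the higher side, as in 15.3% of all genes. The PBL19C3A libraries had 282 and 67 HEI10 reads and the sid2 libraries 53 and 62. The log2 difference of HEI10, 2.46 ± 0.55, had an adjusted p of 0.55, and 0.00202 in DESeq2. Of the 20 tested genes nearest MRD1, edgeR called 0, and 2 differed at least 2-fold, HEI10 and AT1G53540. Of the 5 called genes, MRD1 alone kept its call under each of the 10 other settings that tested it. MRD1 met the filter at a mean of 5 CPM but was not tested there. Its set of libraries then held too few genes for a fit. With both WT libraries under 1 CPM, MRD1 entered the table through the eds1 libraries and had to differ, so its p adds little to its counts. The same holds for AT2G05510, AT2G07140 and HSP21.

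The others were low genes or sat at the threshold. AT2G05510, a glycine-rich protein, had 2 and 0 reads in WT and 86 and 62 in the eds1 line, a ratio of 70.6 (95% counting interval 19.2 to 588, adjusted p = 0.0115). In the PBL19C3A line it had 54 and 128 reads, so that these and the eds1 libraries overlap. The F-box gene AT2G07140 rose by 4.89 ± 0.76 on the log2 scale (adjusted p = 0.00518), from 6 and 0 reads to 124 and 71, and is listed for the eds1 line alone. HSP21, a small heat shock protein of the chloroplast, rose by 2.94 ± 0.52 (adjusted p = 0.0158), from 14 and 9 reads to 122 and 67, and is likewise listed for the eds1 line alone. The call of HSP21 was lost without any 1 library (2.53 to 3.29, adjusted p = 0.072 to 1). That of AT2G05510 was lost without either WT library (adjusted p = 0.652 and 0.606) and under the replicate block (0.73), and that of AT2G07140 without either eds1 library (4.51 and 5.20, adjusted p = 1 and 0.0533). The fifth of these genes was PBL19.

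Genes listed for the eds1 line alone were called more often than others, as their listing implies. Of 106 such genes 10 were called (9.43%), against 25 of the 17327 genes with values in all 8 libraries (0.144%). Of the 15 higher calls 10 came from these genes and 2 from genes that also the PBL19C3A table lists. Among the genes in all tables the higher calls were PBL19, CEP3 and AT3G48640. Counted by level instead, 13 of the 15 higher calls were under 1 CPM in both WT libraries and so were listed through the eds1 libraries, all but PBL19 and CEP3. With the 4 compared libraries alone, 16 of the 37 calls were kept. The 106 genes use these same 4 libraries in the main analysis, but in a separate fit. In the joint fit of all genes AT3G44070, newGene_344 and newGene_345 kept their calls, and AT3G46500 did not. Calls were also lost for HSP21 (adjusted p = 0.435), AT2G07140 (0.593), AT3G44120 (0.0839), AT3G45440 (0.093), newGene_113 (0.139) and newGene_93 (0.155). How far the separate fit sets these calls was not tested.

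The 8 called newGene loci, which stand outside the reference annotation, cannot be assigned to chromosome 3 or elsewhere. Losses and gains were equally many, 4 and 4. newGene_117 had 1361 and 1358 reads in WT and 0 in both eds1 libraries, at least 950-fold lower (adjusted p = 2.2e-05). newGene_115 and newGene_109 were also without reads in the eds1 line, at least 594-fold and 426-fold lower (adjusted p = 0.00013 and 0.00015). All 3 had 245 reads or more in each library of the other lines. With 0 reads in the eds1 line, these 3 loci too were listed through the WT libraries and had to differ. newGene_141 fell by 1.96 ± 0.15 on the log2 scale (adjusted p = 0.0019), from 479 and 527 reads to 143 and 128. Its call was lost with the 4 compared libraries alone (adjusted p = 0.0694) and under limma (0.0776).

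The 4 gained loci had 0 reads in both WT libraries and are listed for the eds1 line alone. The most abundant was newGene_345, with 2857 and 1572 reads in the eds1 line (28.4 and 16.5 FPKM), at least 1408-fold higher (adjusted p = 4.35e-05). newGene_344 had 508 and 340 reads, at least 270-fold higher (adjusted p = 1.3e-05). newGene_113 and newGene_93 had 80 to 126 reads per eds1 library. Without the first eds1 library newGene_344 (adjusted p = 0.0503), newGene_345 (1) and newGene_93 (0.948) lost their calls, and without the second newGene_113 (0.759), newGene_345 (0.915) and newGene_93 (0.905).

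**Figure D3:**
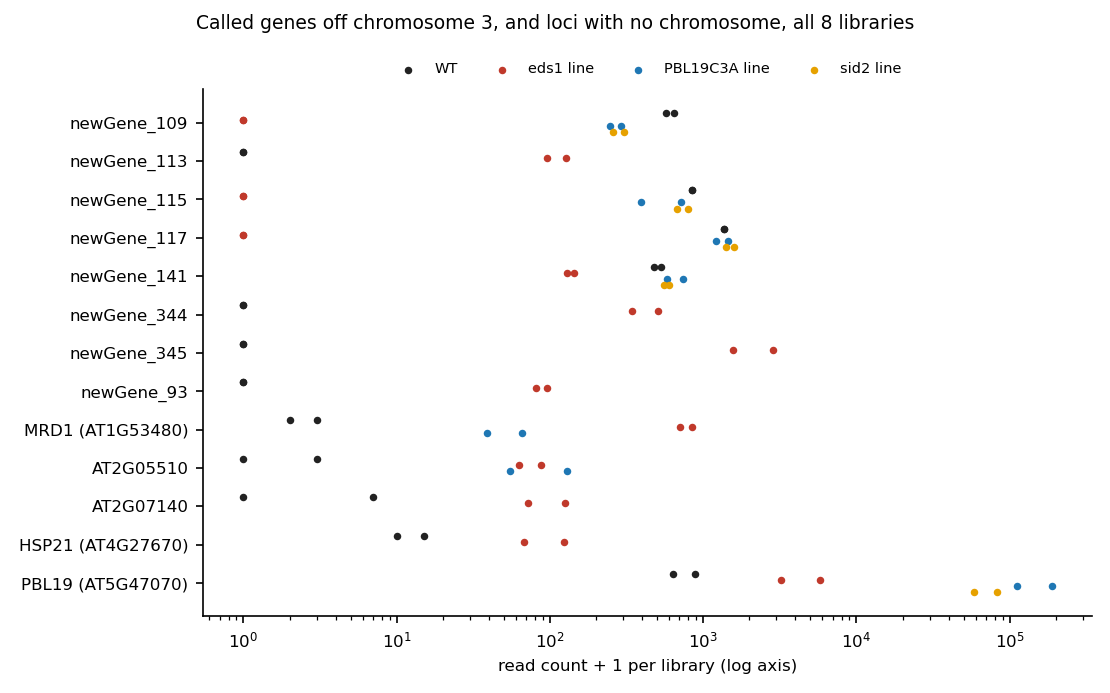
Read counts plus 1 (log axis) of the 13 called loci that carry no chromosome 3 identifier, in each library of the 4 genotypes. The upper 8 are newGene loci of unknown chromosome; of the lower 5, MRD1 goes from 1 and 2 reads in WT to 708 and 844 in the eds1 line, and PBL19 in the eds1 line lies between WT and the other transgenic lines.

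Of the immune genes fixed by name, PBL19 alone was called by edgeR. CRK4 and RPP13, given above, were named because they were called. ICS1, the isochorismate synthase, stood at 5.81 and 8.78 FPKM in WT and at 6.37 and 7.89 FPKM in the eds1 line. The groups overlapped, and the log2 difference of -0.07 ± 0.22 had a 95% interval of -0.59 to 0.45. In the PBL19C3A line ICS1 stood at 72.6 and 57.1 FPKM. PAD4, the partner of EDS1, had 3.79 and 6.45 FPKM in WT against 4.45 and 4.91, and 105 FPKM in both PBL19C3A libraries. Its log2 difference from WT was -0.17 (95% interval -0.80 to 0.46). SAG101, the other partner, differed by 0.25 (95% interval -0.14 to 0.63).

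PR2 and PR5, markers of the salicylic acid response, had levels below WT without being called. PR2, a glucanase, had 2.39 and 7.59 FPKM in WT and 0.649 and 2.26 in the eds1 line, and PR5, a thaumatin-like protein, 6.41 and 6.68 against 4.50 and 4.37. In both genes the eds1 libraries lay below both WT libraries, with log2 differences of -1.82 ± 0.64 and -0.60 ± 0.20 that did not pass edgeR's test (adjusted p = 1 for both). The PBL19C3A libraries stood at 337 and 346 FPKM for PR2. PBS3, which acts after ICS1 in salicylic acid synthesis, had 1.5 and 1.8 FPKM against 0.448 and 0.717, a log2 difference of -1.53 ± 0.36 (adjusted p = 0.651, and 0.00205 in DESeq2). Other salicylic acid genes differed the other way, with overlapping libraries and no call by either tool. CBP60g had 2.75 and 7.77 FPKM in WT against 18.6 and 6.83, a log2 difference of 1.22 ± 0.54. WRKY46 had 0.335 and 1.35 against 5.35 and 0.586, a difference of 1.76 ± 0.91. RLP23, the receptor for a microbial nlp peptide, had 0.941 and 1.37 FPKM against 0.558 and 0.346, a log2 difference of -1.38 ± 0.24 (adjusted p = 0.189, and 2.6e-05 in DESeq2).

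PR1, FMO1, FRK1 and PAD3, genes strongly raised in immune leaves, are not listed for the eds1 line. Each listed gene reaches 1 CPM in at least 2 of the 4 libraries, and the 16950 genes that do so in WT are all listed. If the listing followed that rule throughout, PAD3, which had 3.59 CPM in 1 WT library, was under 1 CPM in both eds1 libraries. PR1, FMO1 and FRK1 were under 1 CPM in both WT libraries, and so in at least 1 library of the eds1 line. In the PBL19C3A line PR1 stood at 2889 and 1247 FPKM, against 1.12 and 0.651 in WT.

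**Figure D4:**
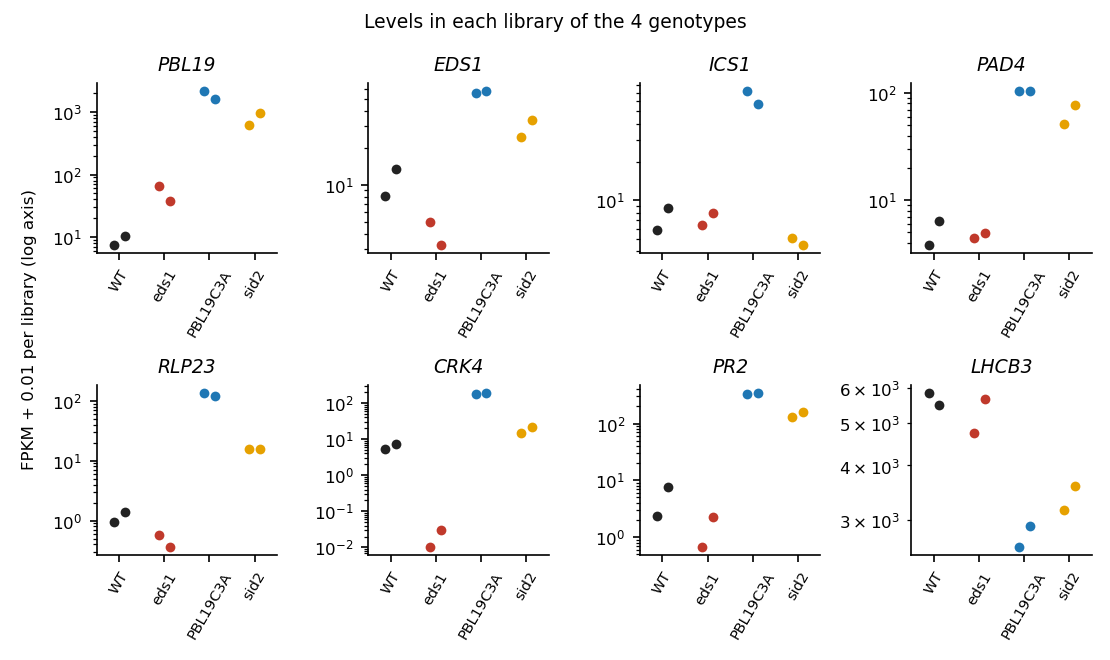
FPKM plus 0.01 (log axis) of 8 genes in each of the 2 libraries of WT, the eds1 line, the PBL19C3A line and the sid2 line. ICS1, PAD4 and LHCB3 in the eds1 line overlap WT, while EDS1, RLP23, CRK4 and PR2 lie below both WT libraries and PBL19 lies above them.

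Of the 224 list genes in the table, drawn from 22 lists, 2 were called, PBL19 and HSP21, beside 37 of all 17534 genes (0.211%). In the salicylic acid synthesis list 0 of 11 genes were called by edgeR, and 0 higher and 1 lower had an unadjusted p under 0.05. The median log2 difference was -0.07, and DESeq2 called PBS3 lower. In the salicylic acid response list 0 of 9 were called by edgeR or DESeq2, 2 lower at an unadjusted p under 0.05, with a median of 0.04. Among 20 EDS1 partners and intracellular receptors 0 were called by either tool and 1 was higher at an unadjusted p under 0.05, and the median was 0.13. For all genes the shares at that unadjusted p were 1.85% higher and 1.61% lower.

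The RPP1 cluster of TIR-type receptors lies inside the chromosome 3 stretch. Its gene AT3G44400 had 1.68 and 3.44 FPKM in WT and 13.4 and 9.90 in the eds1 line, a log2 difference of 2.15 ± 0.32 (adjusted p = 0.0947, and 7.6e-09 in DESeq2). The groups did not overlap, and the PBL19C3A line was higher still at 21.6 and 21.7 FPKM. Its relative AT3G44630 differed the other way, by -0.78 ± 0.30 (adjusted p = 1), with overlapping libraries. Of the 4 genes in the cluster 0 were called by edgeR. Since these receptors resemble each other, the share of reads each received is uncertain.

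Among the 8 heat shock genes tested, HSP21 alone was called. The median log2 difference of the 8 genes was 1.15, against 0.01 for all genes, and 5 of 8 were higher in both eds1 libraries than in both WT libraries, as were 15.3% of all genes. HSP21 and HSP18.2 were under 1 CPM in both WT libraries and so were listed through the eds1 libraries. Without them the median of the other 6 was 1.06, and 3 of 6 did not overlap. HSP17.4, a cytosolic small heat shock protein named here after its values were seen, stood at 4.07 and 4.78 FPKM in WT and at 13 and 15.9 in the eds1 line. Its log2 difference was 1.67 ± 0.28 (adjusted p = 0.164, and 3.9e-05 in DESeq2), and its locus lies inside the chromosome 3 stretch. Summed over the list, levels were 46.2 and 84.2 FPKM in WT and 103 and 169 FPKM in the eds1 line.

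Jasmonate and ethylene genes had a median log2 difference of 0.50, with 0 of 18 called by edgeR or DESeq2. At an unadjusted p under 0.05, 4 were higher and 0 lower, and 11 of 18 were without overlap on the higher side. Over all genes these shares were 1.85%, 1.61% and 15.3%. JAZ1, a repressor that jasmonate itself induces, had 4.41 and 7.67 FPKM in WT and 30.6 and 11.6 in the eds1 line, a log2 difference of 1.76 ± 0.63 (adjusted p = 1). MYC2, the transcription factor JAZ proteins bind, had 15.9 and 16.7 FPKM against 54.1 and 26.2, a difference of 1.26 ± 0.45 (adjusted p = 1). In both genes the first eds1 library was well above the second.

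The first eds1 library was at least 2-fold above the second in 3 of 25 genes of pattern-triggered immunity, 2 of 13 of camalexin and indole glucosinolates and 4 of 8 of leaf senescence, against 2.73% of all genes. So it was in 3 of 11 genes of salicylic acid synthesis and 3 of 9 of abscisic acid, drought and cold. The second was at least 2-fold above the first in 2 of 9 genes of each of the salicylic acid response and abscisic acid lists. It was so in 2 of 8 heat shock genes, against 1.51% of all genes. The next 3 genes were named by the size of their change and were higher in the first eds1 library. WRKY53, a transcription factor of senescence and defence, had 1.22 and 1.25 FPKM in WT but 26.2 and 0.833 in the eds1 libraries. WRKY33, which activates camalexin synthesis, had 14.5 and 34.2 FPKM in WT against 134 and 20.7. CYP81F2, a P450 of indole glucosinolate metabolism, had 3.83 and 10.6 against 31.9 and 5.07. In these 3 genes 1 eds1 library was above both WT libraries while the other was not, and their log2 differences of 3.38, 1.61 and 1.31 turned to -0.58, -0.25 and -0.51 without the first eds1 library. The medians of the lists they stand in, 0.17 for leaf senescence and 0.33 each for pattern-triggered immunity and for camalexin with indole glucosinolates, include these genes, and how far the library sets them was not tested. In each of these lists edgeR called 0 genes. At an unadjusted p under 0.05 there were 1 of 8, 3 of 25 and 0 of 13 genes, and DESeq2 called RLP23 alone, from the second list.

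Photosynthesis genes had a median of -0.16, all 23 between -0.26 and -0.09, and 0 were called by edgeR or DESeq2 or had an unadjusted p under 0.05. Of these, 9 of 23 lay below both WT libraries, compared with 15.1% of all genes. LHCB3, a light-harvesting protein, stood at 5850 and 5490 FPKM in WT against 4743 and 5679, an overlap. The 3 genes tested of N-hydroxypipecolic acid synthesis and systemic resistance differed by -0.50 (SARD4), -0.40 (DIR1) and 0.32 (AZI1). Each was without overlap, as were 30.4% of all genes in either direction. Of these edgeR and DESeq2 called 0, and DIR1 alone had an unadjusted p under 0.05. The 10 reference genes, chosen for steady RNA, lay between -0.07 and 0.18. Genes of cell expansion (median -0.10), cell cycle (-0.07), endoplasmic reticulum folding (0.06), the clock (-0.01) and guard cell, epidermis and phloem (-0.13) gave 0 calls by edgeR or DESeq2. At an unadjusted p under 0.05 they held 0 of 11, 0 of 9, 1 of 13, 0 of 11 and 1 of 11 genes. The 9 genes of abscisic acid, drought and cold had a median of 0.32, and 0 of them passed even the unadjusted p. Here too NCED3, the rate-limiting enzyme of abscisic acid synthesis, was high in the first eds1 library alone, at 3.81 and 4.66 FPKM in WT against 16.2 and 4.11.

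**Figure D5:**
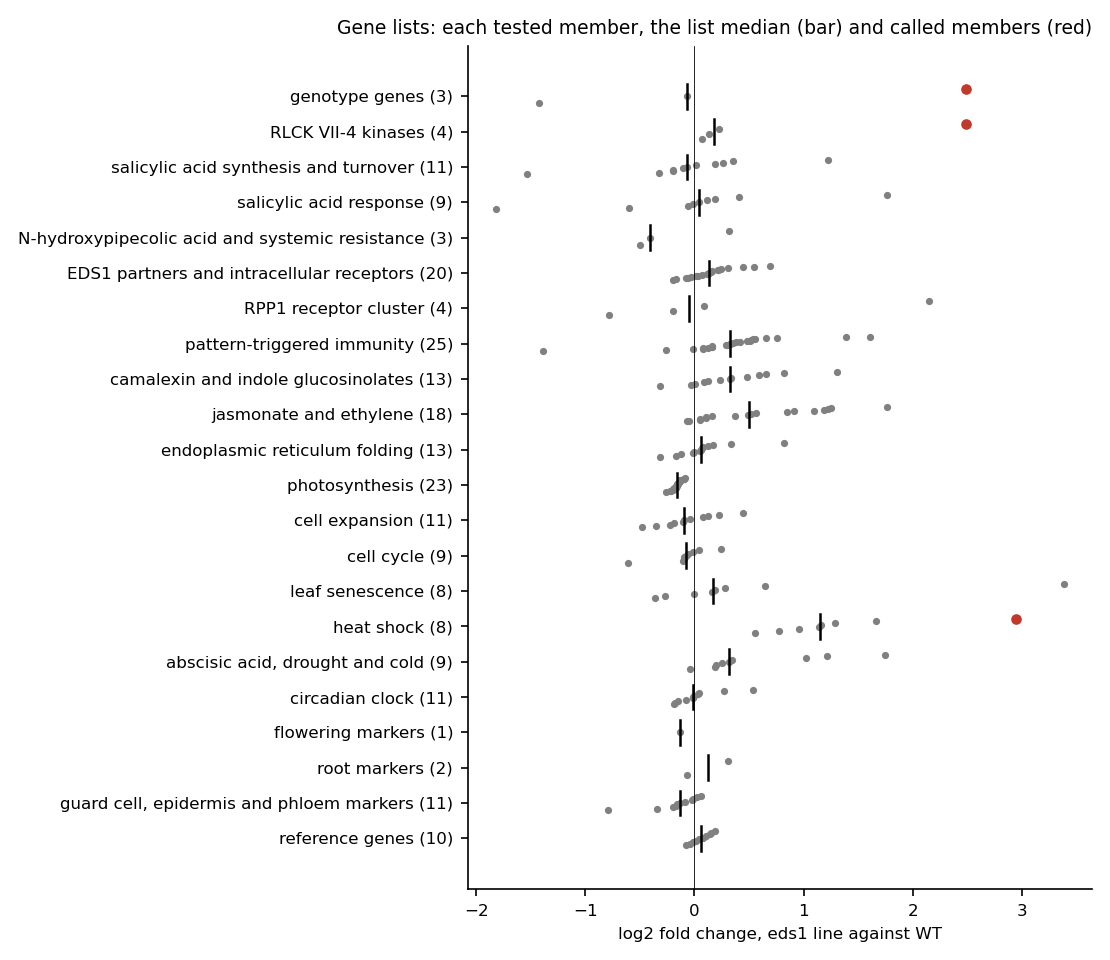
Log2 fold change (eds1 line against WT) of each tested member of the 22 gene lists, with the number tested in brackets, the list median as a bar and called members in red. PBL19 appears in both of the first 2 lists, HSP21 is the called heat shock gene, and all 8 heat shock genes lie above 0 while all 23 photosynthesis genes lie below it.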

How the data were processed

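The authors deposited whole-number read counts and FPKM per gene for each library, in tables that pair WT with 1 line, per the file headers. HISAT2 2.0.4 and TAIR10 are named in the submitters' processing notes. The counting tool and strand setting are not given in the sources used here. Values of overlapping and near-identical genes are therefore uncertain. RNA was extracted with RNAiso Plus, per the labels.

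Counts were tested with edgeR 4.0.16 (R 4.3.3): quasi-likelihood test, TMM scaling on genes common to all tables, genotype as the only term, all 8 libraries. Genes missing from other tables were fitted with 6 (101 genes) or 4 libraries (106 genes), each set of libraries in a fit of its own. P-values were Benjamini-Hochberg adjusted over 17534 genes, threshold 0.05; filterByExpr removed 0 genes. The biological coefficient of variation was 18.1%. On simulated counts for this comparison (17525 genes) the test recovered 50% of 100 genes changed 2-fold and 100% of 100 changed 4-fold, with 8 false calls. The changed genes had a WT mean of at least 100 reads, and all genes shared the same coefficient of variation. Recovery at lower counts or a wider spread was not tested. In the data HEI10 and WRKY53, at log2 differences of 2.46 and 3.38, were not called.

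Samples were grouped by genotype label. Levels are the authors' FPKM; ± is the standard error. Intervals of ratios and the floor of 3 reads cover counting error only. Alternatives were DESeq2 1.42.0 (its Wald test, and its size factors in edgeR), 2 filters, the 4 libraries alone, a replicate block, leaving out each library, limma 3.58.1 on log2(FPKM + 1), and a 2-fold minimum. Genes named are the genotype and immune genes, all called genes, and in each list the called members or else the 2 with the largest change. The comparison, lists and rules were chosen with earlier results of these data known. Names come from RefSeq (TAIR10.1), which matched 17215 of 17345 AT loci, and no coordinates are given as the builds differ.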

Additional observations from a re-analysis of the deposited data

How the results depend on the processing

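In the main analysis 9 genes were called higher and 4 lower off chromosome 3, newGene loci included, and 6 higher and 18 lower on it. DESeq2's Wald test called 27, 13, 18 and 32 in the same order, including all 37 genes. A minimum mean of 5 CPM gave 0 higher off chromosome 3, and 1 higher and 11 lower on it. MRD1 met that minimum but is missing from these counts, as its set of libraries held too few genes for a fit. The 4 libraries alone gave 3 higher off it, and 2 higher and 9 lower on it. limma on FPKM gave 3 higher off it and 10 lower on it. The causes were not tested, apart from the smaller number of genes and samples that the filter and the 4-library fit use by construction. Genes listed for the eds1 line alone have the same 4 libraries in both cases, but the main analysis fitted them apart from the other genes. Leaving out 1 library gave 3 to 10 higher and 4 lower each time off chromosome 3, and 1 to 9 higher and 10 to 15 lower on it; the lowest higher counts came without the first eds1 library. Of the 37 called genes, 10 were called under all 11 other settings. MRD1 and AT3G44740 were called under the 10 that tested them. At the 5 CPM minimum AT3G44740 was left out by the filter, and MRD1 was not fitted. In none of these fits did a called gene change sign.

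The replicate numbers were not used as pairs. Labels do not say what they share, and the difference between libraries 1 and 2 correlated between WT and the eds1 line with r = 0.247 over 16746 genes. With a replicate block 37 genes were called, 35 of them shared; PBL19 and AT2G05510 were lost.

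Uncalled genes whose sign turned when 1 library was left out had these ranges of log2 difference: ICS1 -0.34 to 0.26, PAD4 -0.50 to 0.27, WRKY46 -0.52 to 3.09, WRKY33 -0.25 to 2.39, CYP81F2 -0.51 to 2.22, EXPA5 -0.049 to 0.81, WRKY53 -0.58 to 4.34, NAP -0.42 to 1.25, NCED3 -0.054 to 1.88, GI -0.26 to 1.14, SOC1 -0.30 to 0.016, SCR -0.30 to 0.14 and SLAC1 -0.74 to 0.24.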

Other observations

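DESeq2's Wald test called 53 genes beyond the 37 of edgeR. Of these, 26 lie on chromosome 3, and 23 of the 26 between AT3G29090 and AT3G48740, with 9 higher and 14 lower. They include HSD3, the neighbour and relative of HSD2, at 5.31 and 3.81 FPKM in WT and 0.803 and 0.358 in the eds1 line, a log2 difference of -2.99 ± 0.42 (DESeq2 adjusted p = 1.1e-09, edgeR 0.0658). COPT2, a copper transporter, was on the higher side at 6.97 and 9.82 FPKM against 22.4 and 34.4, a difference of 1.72 ± 0.32 (DESeq2 adjusted p = 2.2e-05, edgeR 0.164). In both genes the libraries of the 2 genotypes did not overlap. Counting the genes that edgeR called too, DESeq2 called 1.44% of the 3470 tested genes on chromosome 3. On chromosomes 1, 2, 4 and 5 it called 0.21% of 13810. The stretch of 350 tested genes from AT3G29090 to AT3G48740 was picked out by edgeR's calls on the same counts. The DESeq2 numbers describe it and are no test.

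On chromosomes 1, 2, 4 and 5 DESeq2 added 24 genes, 16 higher and 8 lower. CSD2, a copper/zinc superoxide dismutase of the chloroplast, stood at 19.2 and 23.3 FPKM in WT and 9.37 and 9.09 in the eds1 line, a difference of -1.24 ± 0.23 (DESeq2 adjusted p = 2.3e-05, edgeR 0.125). MBP1, a myrosinase-binding protein of glucosinolate defence, stood at 4.62 and 2.81 FPKM against 11.5 and 16.3, a difference of 1.87 ± 0.37 (DESeq2 adjusted p = 0.00011, edgeR 0.366). MKK9, a kinase that activates MAP kinases, stood at 6.69 and 13.1 against 22.2 and 21.5 FPKM, a difference of 1.1 ± 0.29 (DESeq2 adjusted p = 0.0319, edgeR 0.77). These 5 genes were picked after their values were seen, and none passed edgeR's test.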
